A study of Mus musculus with 16 samples.

Results

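The 10 genes described here are Il1a, Il1b, Il1rn, Il18 and Il33 of the interleukin-1 family and Nlrp3, Aim2, Casp1, Casp4 and Gsdmd of the inflammasome pathway. They were chosen by gene symbol, as the probe sets that the platform annotation gives to them, out of 19937 genes measured. A probe set is a group of array probes for one transcript, and each of the 10 genes had 1 such set. RNA came from mouse bone-marrow-derived macrophages, which are grown in culture from marrow precursors, and each sample was hybridised to an Affymetrix expression array. The 16 arrays form 4 groups of 4 by genotype and treatment: NFAT5 KO with LPS, wild type (WT) with LPS, unstimulated NFAT5 KO and unstimulated WT. All cells were of the 129sv background. NFAT5 is a transcription factor that acts in hypertonic stress, and LPS is a lipid of the bacterial outer membrane that Toll-like receptor 4 senses. The labels state neither the LPS dose and time, nor the allele behind the KO, nor whether replicates were separate animals or cultures. The p-values therefore cover the spread among these particular samples, which may be technical.

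Macrophages release interleukin-1 in steps. A Toll-like receptor signal first raises the mRNA of Il1b and of the sensor NLRP3, and a second signal then assembles an inflammasome, in which a sensor activates caspase-1. Caspase-1 cleaves the precursors of IL-1β and IL-18 and the pore-forming protein gasdermin D, while caspase-11, the product of mouse Casp4, does the last of these when it binds LPS inside the cell. Arrays measure only the mRNA, so neither cleavage nor release of any of these proteins was observed.

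Levels below are log2 values, on which 1 unit is a doubling of signal, and each probe set has its own brightness, so levels of different genes are not tested against each other and marker means serve only as a rough check of the cell type. A gene was called changed at a Benjamini-Hochberg adjusted p under 0.05 over all 19937 genes in one limma fit to the 16 arrays. The mean level of 8 macrophage markers lay between 12.02 and 12.40 on every array, while the means of mast cell, B cell, T and NK cell markers lay between 4.97 and 5.81, and those of granulocyte, dendritic cell and stromal markers between 5.85 and 6.98. Within that range the genotypes did not overlap. The macrophage mean was 12.03 to 12.18 in unstimulated KO, against 12.32 to 12.40 in unstimulated WT. With LPS the order was reversed, with 12.21 to 12.23 in KO against 12.02 to 12.15 in WT. In bulk RNA, fewer cells of a type and less RNA per cell cannot be told apart. The targeted gene Nfat5 had 9.29, 9.29, 9.12 and 8.67 in KO with LPS, against 9.95, 10.56, 9.97 and 9.80 in WT with LPS, and 8.93, 9.03, 9.20 and 8.99 in unstimulated KO, against 9.15, 9.41, 9.34 and 9.67 in unstimulated WT. It was lower in KO with LPS (log2 difference -0.98, limma adjusted p = 0.00169), but without LPS the groups overlapped and the difference of -0.36 was not called (limma adjusted p = 0.602). The labels do not say whether its probes lie in the deleted sequence. The female transcript Xist exceeded the Y-linked Kdm5d on 10 arrays, which were all 8 WT arrays and the KO arrays numbered 4, and the reverse held on the other 6 KO arrays, so sex and genotype largely coincide and cannot be told apart from most of these arrays.

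The start regions of 4 genes are shown because the calls between genotypes fell on Il1a, Il1rn and Nlrp3 and because Il1b is the best known of the LPS-induced genes here. Each sequence runs 5′ to 3′ on the gene's own strand, from 250 bases before the RefSeq transcription start to 50 bases after it, in GRCm38.p6. They lie at chr2:129309923-129310222 on the minus strand for Il1a, chr2:129371090-129371389 on the minus strand for Il1b, chr2:24336610-24336909 on the plus strand for the first of the 3 starts of Il1rn and chr11:59541319-59541618 on the plus strand for the first of the 2 starts of Nlrp3. Capitals mark every match to the motifs named after the sequences.
Il1a: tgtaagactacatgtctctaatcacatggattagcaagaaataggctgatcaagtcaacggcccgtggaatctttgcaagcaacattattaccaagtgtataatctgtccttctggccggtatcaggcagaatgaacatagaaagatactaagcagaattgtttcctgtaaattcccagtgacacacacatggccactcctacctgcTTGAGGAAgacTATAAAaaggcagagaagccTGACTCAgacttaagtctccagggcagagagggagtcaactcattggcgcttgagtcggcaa
Il1b: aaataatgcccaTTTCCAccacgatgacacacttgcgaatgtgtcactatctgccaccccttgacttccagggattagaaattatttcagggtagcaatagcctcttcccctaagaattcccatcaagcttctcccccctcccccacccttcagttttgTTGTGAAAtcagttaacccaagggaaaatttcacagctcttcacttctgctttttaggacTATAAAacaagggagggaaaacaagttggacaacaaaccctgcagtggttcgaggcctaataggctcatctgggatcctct
Il1rn: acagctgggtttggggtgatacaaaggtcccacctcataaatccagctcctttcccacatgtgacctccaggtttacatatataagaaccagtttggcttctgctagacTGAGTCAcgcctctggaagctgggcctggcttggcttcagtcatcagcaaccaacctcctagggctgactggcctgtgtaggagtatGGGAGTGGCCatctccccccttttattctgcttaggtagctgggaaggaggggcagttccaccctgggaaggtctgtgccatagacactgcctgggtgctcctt
Nlrp3: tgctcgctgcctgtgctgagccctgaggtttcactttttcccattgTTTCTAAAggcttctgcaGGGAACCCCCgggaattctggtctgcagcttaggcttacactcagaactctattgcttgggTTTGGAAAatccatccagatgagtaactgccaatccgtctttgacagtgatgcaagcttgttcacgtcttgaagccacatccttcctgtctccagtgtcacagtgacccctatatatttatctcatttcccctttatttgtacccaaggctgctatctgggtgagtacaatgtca

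Of the 10 genes, 9 had a start region in the RefSeq table, 14 regions in all, and none was found there for Gsdmd. The longer motifs searched on both strands were GGGANNNNCC for NF-kB, TTNNGNAA for C/EBP and GAAANNGAAA for the interferon response element. The AP-1 letters searched on both strands were TGANTCA. The core that NFAT proteins bind, with NFAT5 among them, was searched on both strands as TGGAAA. The TATA box was searched on the gene's own strand as TATAAA. Over 32851 mouse start regions of the same length, 20.7% held the NF-kB letters, 40.7% the C/EBP letters, 3.44% the interferon letters, 7.81% the AP-1 letters, 21.4% the NFAT core and 8.32% the TATA box letters. Il1a held the TATA box letters from position -32, the AP-1 letters from -12 and the C/EBP letters from -43. Il1b held the TATA box letters from -31, the C/EBP letters from -91 and the NFAT core on the opposite strand from -238. In the Il1rn region shown, the AP-1 letters began at -141 and the NF-kB letters at -54. The later starts of Il1rn, whose regions overlap and are not shown, held the NFAT core from 19 and from -62 respectively, and C/EBP letters. In the Nlrp3 region shown, NF-kB letters began at -186 and C/EBP letters at -204 and -125, the last of which overlaps the NFAT core at -123. The second start of Nlrp3, not shown, held the NFAT core on the opposite strand from -90 and C/EBP letters from -23. These matches describe the letters only, and binding was not measured.

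LPS raised the mRNA of most of these genes in both genotypes. In KO cells 9 of 10 genes were called higher with LPS, where 12% of all genes were, and their groups did not overlap, which held for 12.4% of all genes. In WT cells 8 of 10 were called higher, where 14% of all genes were, and these 8 did not overlap either, which held for 16.2% of all genes. None was called lower in either genotype. The median difference over the 10 genes was 2.0 in KO and 1.90 in WT on the log2 scale, beside medians over all genes of 0.01 and 0.06.

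**Figure D1:**
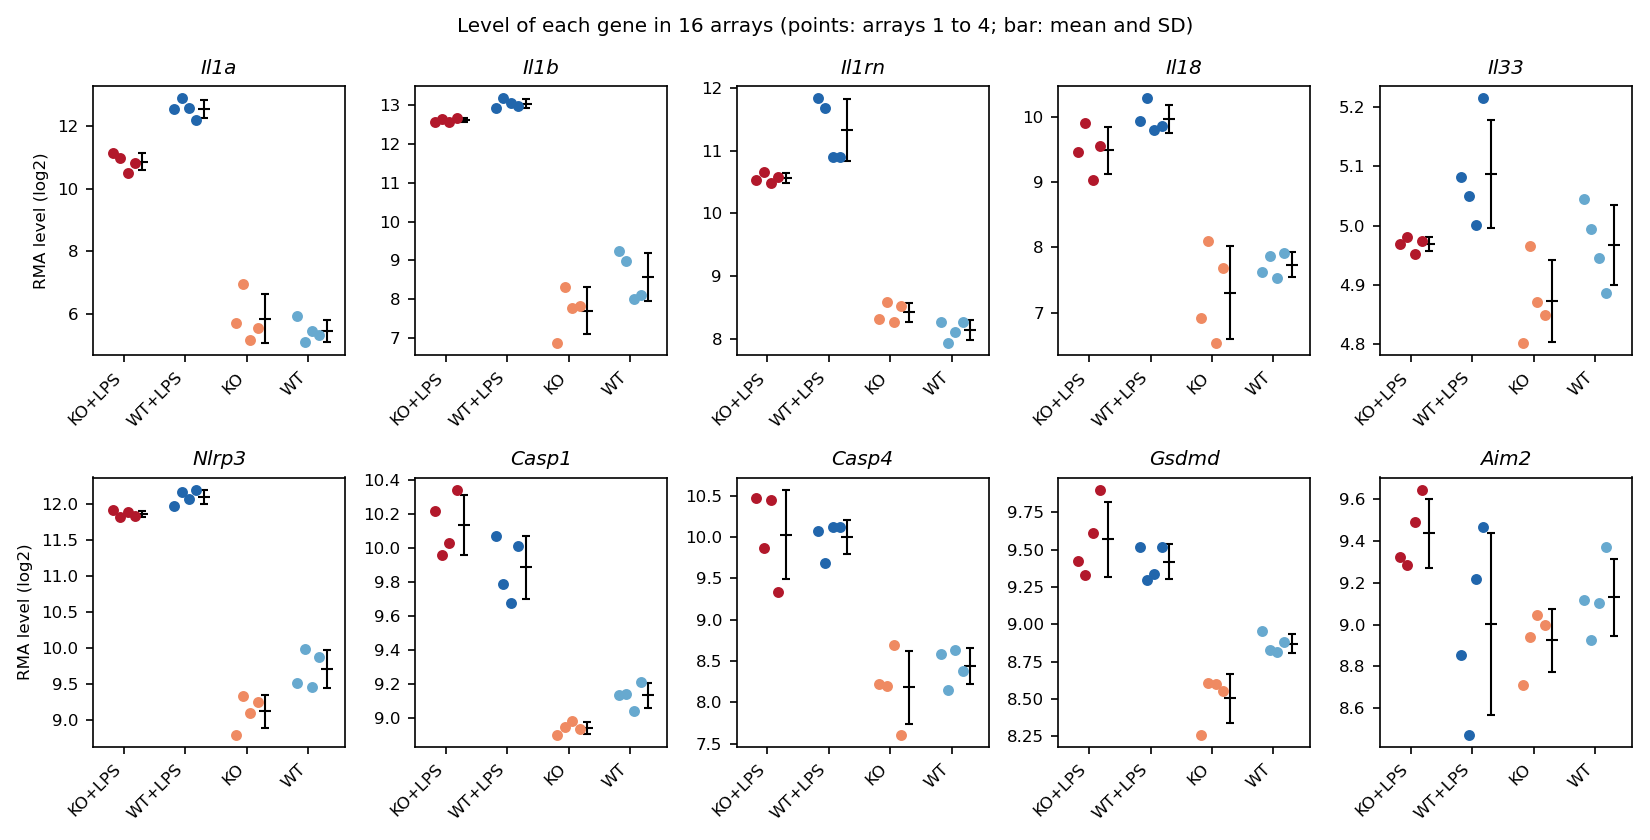
RMA log2 level of each of the 10 genes (y axis, a scale of its own per panel) on every array, by group (x axis). Points run from array 1 to array 4 within a group and the bar gives the group mean and SD. Il1a in KO with LPS lies between 10.50 and 11.13, below all 4 WT arrays with LPS, while Il33 stays between 4.8 and 5.21 on all 16 arrays.

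Il1a encodes IL-1α, an alarmin that is active without caspase-1 cleavage, and it had the largest estimated rise among the 10 genes. Its level was 11.13, 10.99, 10.50 and 10.83 in KO with LPS, against 5.72, 6.97, 5.18 and 5.57 in unstimulated KO. In WT with LPS it was 12.54, 12.87, 12.55 and 12.19, against 5.94, 5.13, 5.46 and 5.36 in unstimulated WT. All stimulated arrays lay far above all unstimulated ones, and KO array 2 was the highest of the unstimulated arrays. The rise was 5.0 ± 0.279 (SE) in KO, a 32.0-fold change that ranked 7 among all genes, and 7.07 ± 0.279 in WT, which ranked 2 (limma adjusted p = 1.90e-10 in KO and 1.41e-12 in WT). Its unstimulated means, 5.86 in KO and 5.47 in WT, lay in the dim range, where RMA compresses differences, so these folds are approximate.

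Il1b, whose product IL-1β is the main secreted interleukin-1, rose in both genotypes. It had 12.58, 12.64, 12.58 and 12.68 in KO with LPS, against 6.86, 8.32, 7.76 and 7.83 in unstimulated KO. It had 12.93, 13.19, 13.07 and 12.98 in WT with LPS, against 9.23, 8.98, 8.0 and 8.10 in unstimulated WT. The stimulated arrays of each genotype were tightly grouped, with SDs of 0.0518 in KO and 0.111 in WT, whereas the unstimulated ones spread with SDs of 0.607 in KO and 0.617 in WT. The rise was 4.93 ± 0.263 in KO (30.4-fold, limma adjusted p = 1.06e-10) and 4.46 ± 0.263 in WT (22-fold, limma adjusted p = 2.49e-10). It ranked 9 among the rises in KO and 18 in WT.

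Il1rn encodes the receptor antagonist that blocks both forms of IL-1 at their receptor. Its level was 10.54, 10.66, 10.48 and 10.59 in KO with LPS, against 8.31, 8.58, 8.27 and 8.51 in unstimulated KO. Its level was 11.84, 11.68, 10.90 and 10.90 in WT with LPS, against 8.26, 7.93, 8.10 and 8.27 in unstimulated WT. In WT with LPS the arrays fell into a higher pair, numbered 1 and 2, and a lower pair, numbered 3 and 4. The rise was 4.43-fold in KO (2.15 ± 0.173, limma adjusted p = 2.14e-08) and 9.12-fold in WT (3.19 ± 0.173, limma adjusted p = 8.96e-11).

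Il18, a caspase-1 substrate that stimulates interferon-γ production by lymphocytes, reached 9.04 to 9.92 in KO with LPS, against 6.53 to 8.11 in unstimulated KO. In WT it reached 9.80 to 10.29 with LPS, against 7.54 to 7.92 without. The responses were close, 4.56-fold in KO and 4.72-fold in WT (limma adjusted p = 2.49e-06 and 1.40e-06). Il33, an alarmin made mainly by epithelial and stromal cells, stayed at 4.95 to 4.98 in KO with LPS, against 4.8 to 4.97 in unstimulated KO, and at 5.0 to 5.21 in WT with LPS, against 4.89 to 5.04 in unstimulated WT. Its differences of 0.10 in KO and 0.12 in WT were not called (limma adjusted p = 0.457 and 0.263, with 95% intervals of -0.06 to 0.25 and -0.04 to 0.28). All these Il33 levels lay in the dim range.

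Nlrp3, the sensor that responds to potassium efflux and many membrane stresses, had 11.92, 11.83, 11.89 and 11.84 in KO with LPS, against 8.79, 9.33, 9.09 and 9.25 in unstimulated KO. It had 11.98, 12.17, 12.07 and 12.20 in WT with LPS, against 9.52, 9.99, 9.46 and 9.87 in unstimulated WT. The stimulated arrays of both genotypes lay close together and above every unstimulated array. The rise was 6.75-fold in KO (2.76 ± 0.125, limma adjusted p = 1.51e-11) and 5.26-fold in WT (2.39 ± 0.125, limma adjusted p = 5.39e-11). Aim2, a sensor of DNA in the cytosol, behaved differently, with 9.32, 9.29, 9.49 and 9.65 in KO with LPS, against 8.71, 8.94, 9.05 and 9.0 in unstimulated KO. In WT it had 8.85, 8.47, 9.22 and 9.47 with LPS, against 9.12, 8.93, 9.10 and 9.37 without LPS. The KO groups did not overlap, while stimulated WT arrays lay both below and above the unstimulated ones. The rise in KO was 0.51 ± 0.165 (1.43-fold, limma adjusted p = 0.0278), and the difference in WT was -0.13 with a 95% interval of -0.47 to 0.22 (limma adjusted p = 0.614). The difference between these responses was not called (0.64, limma adjusted p = 0.27), but was called with a sex term and the replicate block (limma adjusted p = 0.0486). The call in KO was lost when any of KO with LPS arrays 3 and 4 or unstimulated KO arrays 1 and 2 was left out (limma adjusted p = 0.052 to 0.0868), in the fit without the arrays numbered 1 (0.121) and on the arrays with Xist above Kdm5d (0.35).

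The 3 effector genes were called higher with LPS in both genotypes. Casp1, the protease that inflammasomes activate, lay at 9.96 to 10.34 in KO with LPS, against 8.90 to 8.98 in unstimulated KO, and at 9.68 to 10.07 in WT with LPS, against 9.04 to 9.21 in unstimulated WT. It rose 2.30-fold in KO and 1.69-fold in WT (limma adjusted p = 3.86e-08 and 9.06e-06). Gsdmd lay at 9.33 to 9.90 in KO with LPS, against 8.26 to 8.61 in unstimulated KO, and at 9.30 to 9.52 in WT with LPS, against 8.81 to 8.96 in unstimulated WT. It rose 2.09-fold in KO and 1.46-fold in WT (limma adjusted p = 9.52e-07 and 0.000967).

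Casp4 had 10.47, 9.87, 10.45 and 9.33 in KO with LPS, against 8.22, 8.20, 8.69 and 7.61 in unstimulated KO. In WT it had 10.07, 9.69, 10.11 and 10.12 with LPS, against 8.58, 8.15, 8.63 and 8.38 without. Array 4 was the lowest of both KO groups, while among WT arrays number 2 was the lowest of both groups. The rise was 3.6-fold in KO and 2.96-fold in WT (limma adjusted p = 5.50e-06 and 2.88e-05). Some 129 substrains carry a Casp4 mutation that removes the protein, and the labels do not name the substrain used, so the mRNA level does not show whether caspase-11 was present.

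**Figure D2:**
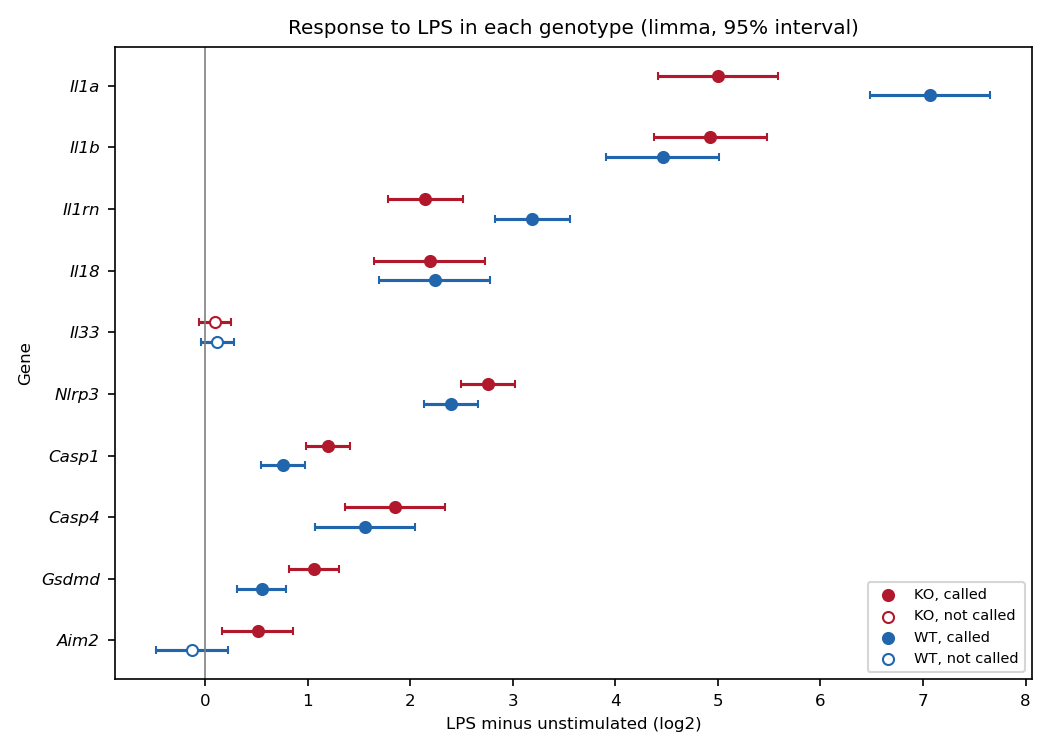
Difference between LPS and unstimulated arrays on the log2 scale (x axis) for each gene (y axis) in KO and in WT, with 95% intervals from limma. Filled points were called. Il1a stands at 5.0 in KO and 7.07 in WT, and Il33 stands near 0 in both.

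Under LPS, KO cells had less Il1a and less Il1rn mRNA than WT cells, while the other 8 genes were not called. Il1a was 3.20-fold lower and Il1rn 1.70-fold lower. These 2 of 10 genes were called lower, where 1.26% of all genes were, and none was called higher. The groups did not overlap for Il1a, Il1b, Il1rn, Il33 and Nlrp3, all 5 lower in KO, and 3.59% of all genes lay apart in that direction. Of these, Il33 lay in the dim range on every array, at 4.8 to 5.21, so its separation may not reflect expression of the gene. The median difference over the 10 genes was -0.18, beside -0.01 over all genes.

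For Il1a, whose values under LPS are given above, the highest KO array, at 11.13, lay below the lowest WT array, at 12.19. The difference was -1.68 ± 0.279 (SE, n = 4 against 4; limma adjusted p = 0.00175), which ranked 20 among all falls, and it was negative for each of the 4 array numbers, by -1.36 to -2.05. The call held with each of the 16 arrays left out, with limma adjusted p between 6.23e-05 and 0.00926. It held with a term for sex and was lost only when that term was combined with the replicate block (-1.61, limma adjusted p = 0.0909). All WT arrays have Xist above Kdm5d, so the sex term rests on the KO arrays numbered 4 against the other KO arrays.

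For Il1rn the difference was -0.76 ± 0.173 (limma adjusted p = 0.0192). The size varied with the array number, from -1.30 and -1.02 for numbers 1 and 2 to -0.42 and -0.32 for numbers 3 and 4, and the KO arrays lay close together while the WT arrays did not. The call was lost when KO array 1 or 3 or WT array 1 or 2, all with LPS, was left out (limma adjusted p = 0.0566 to 0.0909), in the fit of only these 8 arrays (0.0851), without the arrays numbered 1 (0.169), with a sex term (0.103) and on the arrays with Xist above Kdm5d (0.317).

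Il1b was lower on all 4 KO arrays with LPS than on any WT array with LPS, yet the difference of -0.42 ± 0.263 was not called in the fit of all arrays (limma adjusted p = 0.683), which takes its error from all 4 groups. The fit of only the 8 arrays with LPS called it (limma adjusted p = 0.0253, and 0.0157 with the replicate block). With a sex term and the replicate block over all arrays, the difference shrank to -0.0513 (limma adjusted p = 0.973). Nlrp3 was apart in the same way with a difference of -0.23 (limma adjusted p = 0.558), and Il33 with -0.12 (0.703). Il18 was -0.48 and overlapped (0.559); it was called only in the fit of these 8 arrays with the replicate block (0.0204).

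None of the 3 effector genes was called between genotypes under LPS. The difference was 0.25 ± 0.101 for Casp1 (95% interval 0.04 to 0.46, limma adjusted p = 0.295) and 0.15 ± 0.115 for Gsdmd (-0.09 to 0.39, limma adjusted p = 0.828). Casp4 differed by 0.03 ± 0.232 with an interval of -0.46 to 0.52 (limma adjusted p = 0.998). With a sex term its difference became -0.61 (limma adjusted p = 0.112), and KO array 4 is both the low array and the only KO array with LPS that has Xist above Kdm5d. Aim2 differed by 0.43 ± 0.165 and was not called (limma adjusted p = 0.245), but was called with the replicate block (limma adjusted p = 0.0447).

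**Figure D3:**
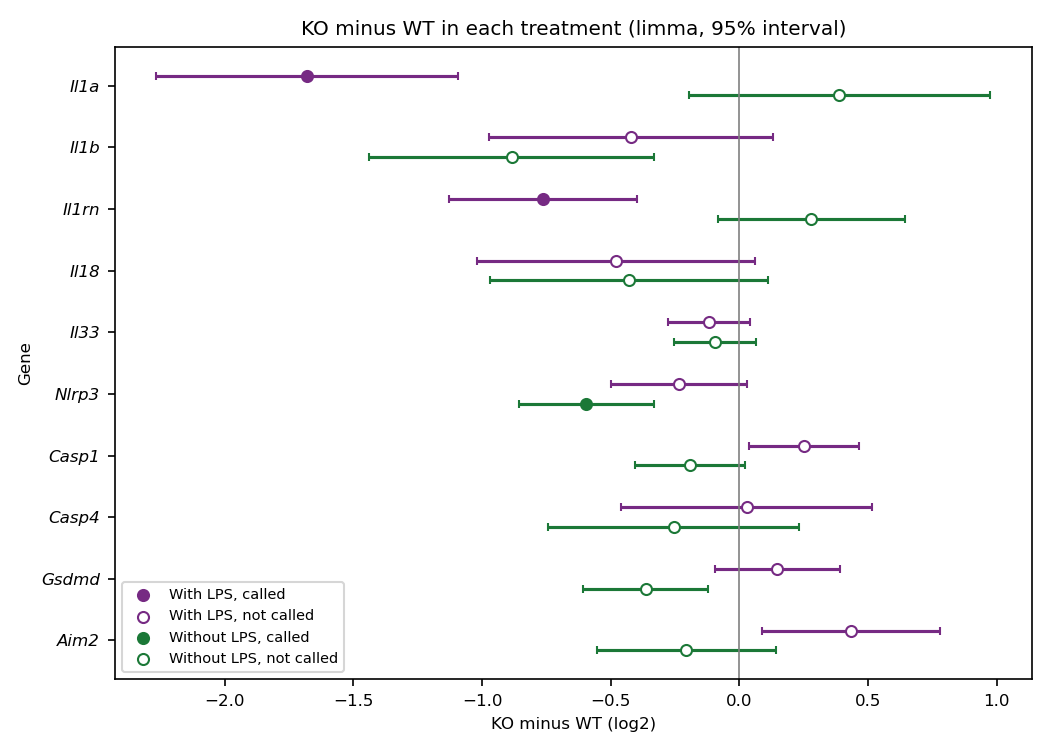
KO minus WT on the log2 scale (x axis) for each gene (y axis) with LPS and without LPS, with 95% intervals from limma. Filled points were called: Il1a at -1.68 and Il1rn at -0.76 with LPS, and Nlrp3 at -0.59 without LPS.

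The response to LPS itself differed between genotypes for the same pair of genes. The KO response minus the WT response was -2.07 ± 0.394 for Il1a, a response 4.19-fold smaller in KO (limma adjusted p = 0.0145, rank 7 among falls), and -1.04 ± 0.245 for Il1rn, 2.06-fold smaller (limma adjusted p = 0.0431). These were 2 of 10 genes with a negative difference called, where 0.301% of all genes had one, genes with a stronger fall in KO included, and none of the 10 had a positive difference called. The unstimulated levels of Il1a, which lie in the dim range, enter its difference directly, so this fold is approximate too. By array number the difference for Il1a was -1.20, -3.72, -1.78 and -1.57, with number 2 set apart by the high unstimulated KO array. For Il1rn it was -1.35, -1.68, -0.59 and -0.56. The numbers were not found to pair stimulated with unstimulated arrays, so these values by number are a description. The call for Il1a was kept with each single array left out but not without the arrays numbered 1 (limma adjusted p = 0.0741), without those numbered 4 (0.0571) or on the arrays with Xist above Kdm5d (0.239). The call for Il1rn was lost in 14 of 16 fits that left out an array, all but those without WT array 3 or 4 with LPS, at limma adjusted p of 0.0584 to 0.106. It was also lost on centring each array on its median (0.0623), without the arrays numbered 1 (0.199) and without those numbered 4 (0.0623). On the arrays with Xist above Kdm5d, where each KO group keeps only its array 4, the Il1rn difference was -1.12.

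The other 8 genes had no called difference in response. Il1b, Nlrp3, Casp1, Casp4, Gsdmd and Aim2 had positive differences of 0.28 to 0.64, and the median over the 10 genes was 0.32, beside -0.02 over all genes. For Nlrp3, Casp1, Gsdmd and Aim2 the difference was positive for each of the 4 array numbers. As the numbers were not found to pair stimulated with unstimulated arrays, these signs are a description and lend no weight to uncalled differences. The limma adjusted p of Casp1 was 0.185 (0.44 ± 0.143) and that of Gsdmd 0.174 (0.51 ± 0.163). Il18 and Il33 had differences of -0.05 and -0.02, with 95% intervals of -0.81 to 0.72 and -0.25 to 0.20.

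Without LPS, Nlrp3 was lower in KO than in WT, and 9 of the 10 genes were not called. Nlrp3 was 1.51-fold lower (-0.59 ± 0.125, limma adjusted p = 0.024). It was the 1 of 10 genes called lower, where 0.863% of all genes were. The groups also did not overlap for Casp1 and Gsdmd, so that 3 of 10 genes lay apart and lower in KO, beside 2.86% of all genes. The highest unstimulated KO array of Nlrp3 was at 9.33 and the lowest unstimulated WT array at 9.46. The call was lost when KO array 1 or 3 or WT array 2 or 4 was left out (limma adjusted p = 0.0703 to 0.106), in the fit of only the 8 unstimulated arrays (0.183), without the arrays numbered 1 (0.127) or 4 (0.104), with a sex term (0.0982) and on the arrays with Xist above Kdm5d (0.372).

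Il1b had the largest difference among the genes not called, -0.89 ± 0.263 (limma adjusted p = 0.177), and its groups overlapped. By array number it was -2.37, -0.66, -0.24 and -0.27, so that most of it lay in number 1. Gsdmd had -0.36 ± 0.115 (limma adjusted p = 0.236) and Casp1 -0.19 ± 0.101 (limma adjusted p = 0.692). Casp4 differed by -0.26 (limma adjusted p = 0.875), and with a sex term by -0.89, which was called (limma adjusted p = 0.0369). That term rests on the KO arrays numbered 4, and unstimulated KO array 4 had the lowest Casp4 level, 7.61. By array number the Casp4 difference was -0.37, 0.05, 0.07 and -0.77. The median over the 10 genes was -0.23, beside 0.00427 over all genes.

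A measured property of the unstimulated arrays moved with Il1b. The mean of 10 interferon-stimulated genes was 8.75, 9.52, 9.17 and 9.45 in unstimulated KO, against 10.91, 10.29, 10.16 and 9.82 in unstimulated WT, with 8 of the 10 called lower in KO. Both KO array 1, which had the lowest Il1b, and WT array 1, which had the highest, stood at the ends of that range. Over the 16 arrays, deviations from the group means of this interferon level correlated at r = 0.821 with those of Il1b, 0.673 with those of Il33 and 0.522 with those of Gsdmd, as a description of arrays that share their groups. For Nlrp3 the value was 0.148, for Casp1 0.0285 and for Il1a 0.309. Il33 lay in the dim range on every array, so its correlation may not reflect expression of the gene. With LPS the interferon mean was 11.70, 11.75, 11.92 and 11.98 in KO, against 11.53, 11.54, 11.73 and 11.83 in WT. Its part in the differences was not tested.

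**Figure D4:**
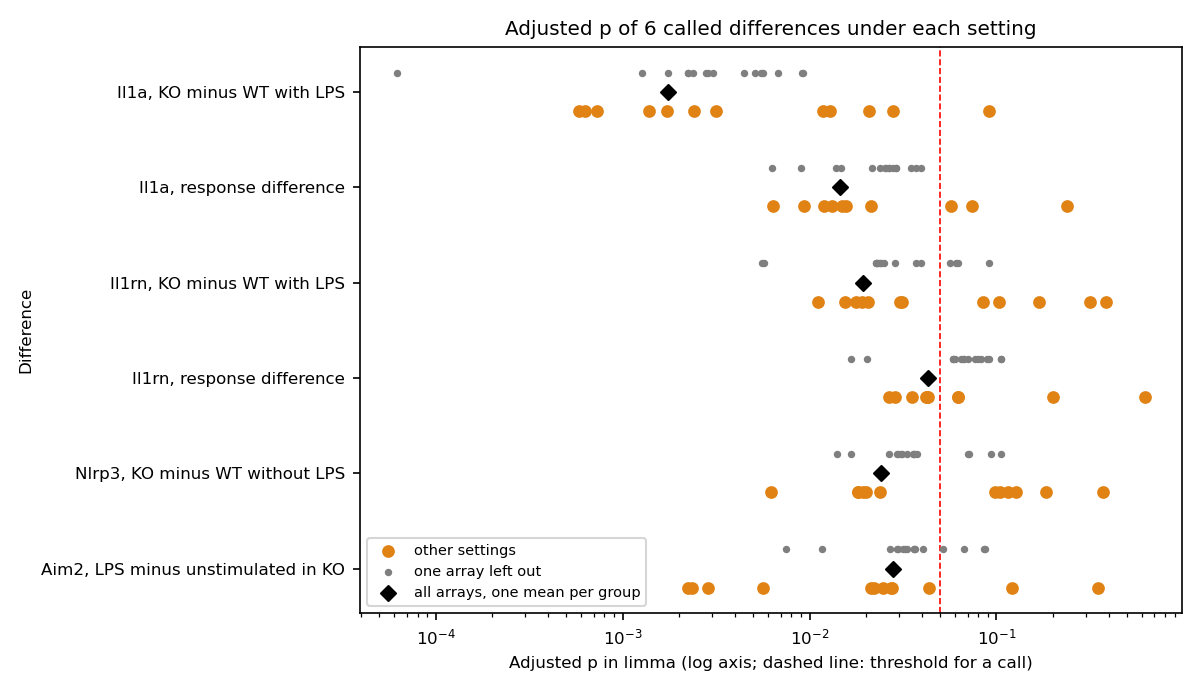
Limma adjusted p (x axis, log scale) of 6 called differences (y axis) with all arrays and a mean per group (diamonds), with 1 array left out (small points) and under the other settings (circles). The dashed line is the threshold of 0.05. For Il1a with LPS all small points lie left of it, and for the Il1rn response 14 of 16 lie right of it.

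The rest of the pathway was read from a list of 44 genes, of which 38 were measured. Of these, 9 rose and 8 fell with LPS in KO, where 12% of all genes were called higher and 12.7% lower. In WT 12 rose and 8 fell, where 14% of all genes were called higher and 16.8% lower. The median difference was 0.0158 in KO and 0.0435 in WT, close to the medians over all genes. Of the 5 other IL-1 family cytokines, 2 were called higher with LPS in WT, and of the 7 receptors and binding proteins 1 was. Over all genes, 14% were called higher in WT and 12% in KO. Il1f6, which encodes IL-36α, rose 1.59-fold and Il1f9, which encodes IL-36γ, 1.31-fold in WT, as did Il1rap, the shared receptor chain, by 1.61-fold (limma adjusted p = 0.00807, 0.0146 and 0.00414), and none of the 12 was called in KO. Il1f6 and Il1f9 lie in the dim range, so their folds are approximate, and the call for Il1f9 was lost without WT array 4 with LPS (limma adjusted p = 0.0534) and without the arrays numbered 4 (0.09). The difference in response between genotypes was called for none of these 12 genes.

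Among 10 measured sensors, 4 rose and 3 fell in each genotype. Over all genes, 12% rose and 12.7% fell in KO, and 14% rose and 16.8% fell in WT. Nod2 and Nod1, which sense bacterial peptidoglycan, rose 3.86-fold and 2.73-fold in KO and 3.97-fold and 2.44-fold in WT. Mefv, which encodes pyrin, rose 4.52-fold in KO and 5.70-fold in WT, and Nlrc4, which works with NAIP proteins, 2.07-fold and 1.97-fold. Naip5 and Naip6, whose products detect flagellin, and Nlrp1b, a sensor of bacterial proteases, fell in each genotype, with log2 differences of -0.48 to -0.57 in KO and -0.70 to -0.90 in WT. The Naip genes are near-identical copies, so their probe sets may share signal and the values are uncertain.

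Adaptors and regulators split in a similar way. Pycard, the ASC adaptor that joins sensors to caspase-1, fell by 0.70 in KO and by 1.09 in WT, and Nek7, a partner that NLRP3 needs for assembly, fell by 0.47 and by 1.0. Ninj1, which ruptures the plasma membrane late in pyroptosis, rose 2.09-fold in KO and 1.77-fold in WT. Among 10 regulators 4 rose and 3 fell in each genotype, beside the same shares over all genes as for the sensors. Gbp5, an interferon-induced GTPase, rose 32.5-fold in KO and 30.2-fold in WT, and Tnfaip3, which encodes the NF-kB inhibitor A20, 6.31-fold and 7.80-fold. P2rx7, the ATP-gated channel that triggers NLRP3, and Txnip, which encodes a thioredoxin-binding protein, fell in each genotype.

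With LPS, 4 of the 38 genes were called higher in KO than in WT, where 1.8% of all genes were. Only 1 was called lower, where 1.26% of all genes were. Nek7 had 10.29, 10.16, 10.03 and 10.35 in KO with LPS, against 9.44, 9.37, 9.58 and 9.76 in WT with LPS, groups that did not overlap. The difference was 0.67 ± 0.123 (1.60-fold, limma adjusted p = 0.00388) and was called with each single array left out. P2rx7 had 8.97, 9.11, 9.02 and 8.98 in KO with LPS, against 8.26, 7.81, 8.60 and 8.65 in WT with LPS, a difference of 0.69 ± 0.156 (limma adjusted p = 0.0189). Naip6 was 0.44 and Naip5 0.50 higher (limma adjusted p = 0.0181 and 0.0324), and Tnfaip3 was lower, with a difference of -0.54 ± 0.139 (limma adjusted p = 0.0423). These 4 calls were each lost with some single array left out: P2rx7 without KO array 2 or 3 or WT array 1 or 2 with LPS, Naip6 without KO array 1 or 2 or WT array 2 with LPS, Naip5 without any array with LPS but WT array 4, and Tnfaip3 without any array with LPS or without unstimulated KO array 2 or WT array 2 or 3. With a sex term P2rx7 (limma adjusted p = 0.0892), Naip6 (0.162), Naip5 (0.177) and Tnfaip3 (0.208) were not called, and Nek7 was lost with that term and the replicate block (0.0729) and without the arrays numbered 1 (0.0696). On the arrays with Xist above Kdm5d none of the 5 was called. With the replicate block 3 more genes were called, Il1f6 (-0.63, limma adjusted p = 0.0249) and the interferon regulatory factors Irf1 (0.59, 0.0377) and Irf2 (0.31, 0.0357).

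P2rx7 was the single gene of the 38 whose LPS response was called different, where 0.988% of all genes had a positive difference called (KO response minus WT response). Its level was 9.82, 10.34, 10.49 and 10.22 in unstimulated KO, against 10.58, 10.52, 10.56 and 10.49 in unstimulated WT. It fell by 1.20 in KO and by 2.21 in WT, a difference of 1.01 ± 0.221 (limma adjusted p = 0.0314) that was lost in 9 of 16 fits that left out an array (limma adjusted p = 0.0531 to 0.0655), among them those without KO array 1, 2 or 3 or WT array 1 with LPS. With the replicate block P2rx7 stayed called and 3 more genes were called, Nek7 (0.53, limma adjusted p = 0.034), Irf2 (0.50, 0.0297) and Irgm1, an interferon-induced GTPase (1.23, 0.0352). The block gives a number the same effect with and without LPS, although the numbers were not found to pair those arrays. Without LPS 0 of the 38 genes were called in limma between the genotypes, where 1% of all genes were, and 4 had an unadjusted p under 0.05. No share over all genes is given for that last count, so it is not read as a result.

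**Figure D5:**
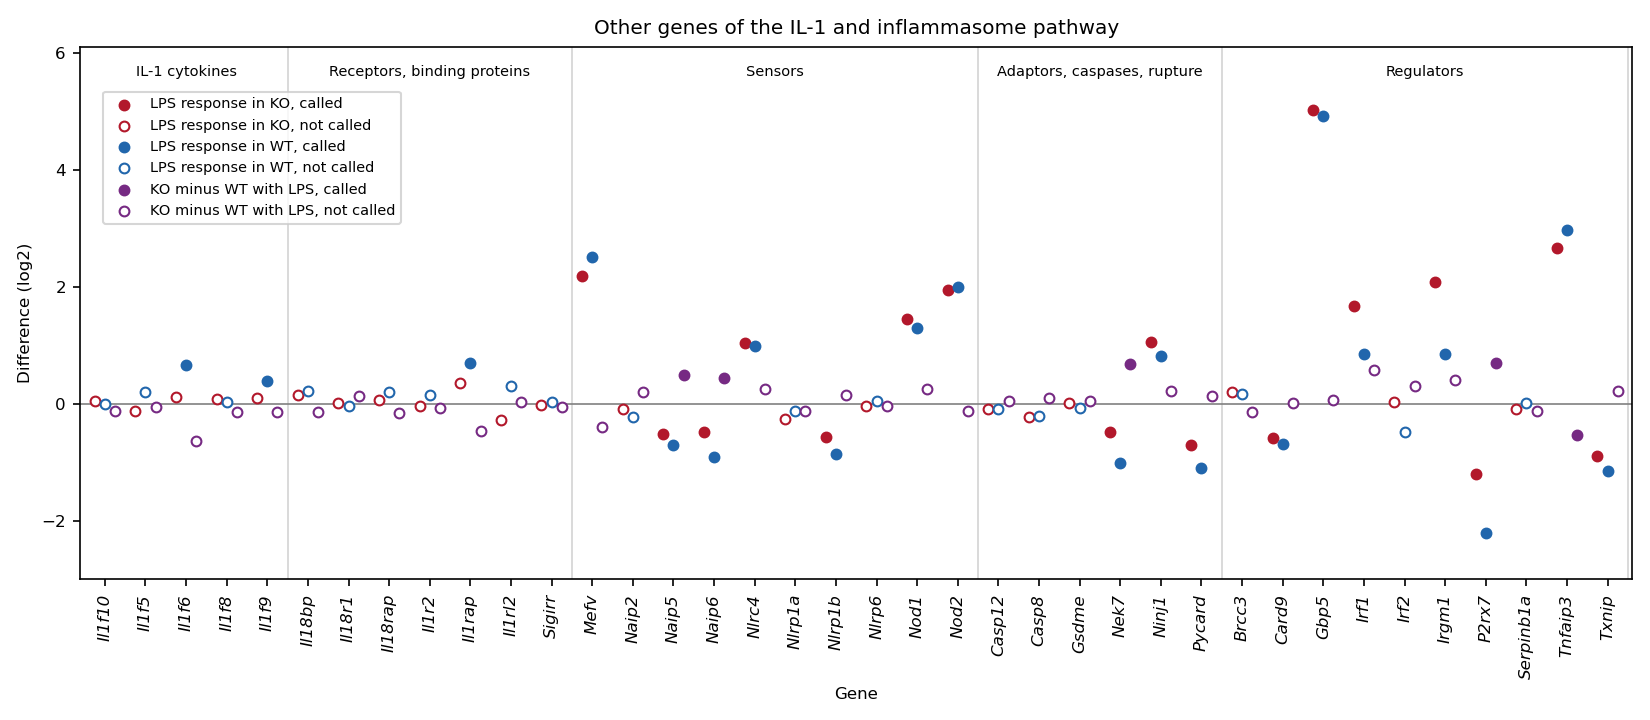
Log2 differences (y axis) of the 38 measured pathway genes (x axis, by list) for LPS against unstimulated in KO and in WT and for KO against WT with LPS. Filled points were called. Gbp5 has the largest response, at 5.02 in KO and 4.92 in WT, and P2rx7 the largest fall, at -1.20 in KO and -2.21 in WT.

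The genes with levels most like these were found by Pearson correlation over the 16 arrays, which here is set mostly by the LPS groups. Il1a was closest to Il6 (r = 0.992), Hivep3 (0.991) and Rab11fip1 (0.989). Il1b was closest to Cd69 (0.997), Gbp2b (0.995) and Acod1 (0.994), and Nlrp3 to Rel (0.994), Nfkbiz (0.993) and Dnaja2 (0.992). Il1rn had Elp5 (0.991), Psip1 (0.991) and Cebpb (0.989) nearest. Aim2 and Il33 had no gene above 0.904, with Tesk1 at 0.903 for Aim2 and Oosp3 at 0.882 for Il33. Among the 10 genes themselves, levels of Il1b and Nlrp3 correlated at 0.989 and those of Il1a and Il1rn at 0.986, while Aim2 stayed at or below 0.551 with every other gene. Within groups, the deviations of pairs of these genes correlated from -0.599, for Il18 and Casp4, to 0.668, for Il1a and Il18. Next to these ends stood Casp1 and Gsdmd at 0.662, Il1b and Il33 at 0.607, and Il1rn and Aim2 at -0.55. The correlations of Il33 rest on levels in the dim range.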

How the data were processed

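The authors deposited log2 expression values per probe set, summarised by RMA per the submitters' processing notes, which give no version. RMA sets all arrays to a common distribution, which hides any shift common to the whole array. Array medians ran from 6.76 to 6.86, and precision is limited by having 4 arrays per group. Of 34760 probe sets, the platform annotation gave 1 gene to 21640, several to 1321 and did not list 11799. The brightest probe set stood for each of 19937 genes. A linear model with a mean per group was fitted to all 16 arrays with limma 3.58.1 in R 4.3.3 (lmFit and eBayes, 12 residual degrees of freedom), and p-values were adjusted by Benjamini-Hochberg over all genes in each of 5 contrasts. An adjusted p under 0.05 made a call, and every adjusted p in the text comes from limma. The 10 genes and all lists were chosen with earlier results of these data known.

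Named genes were the 10 members, up to 4 genes per pathway sublist with the smallest p in each contrast, and up to 3 genes per member with the highest correlation. The 6 pathway genes without a named probe set were not analysed here. Sex was read from Xist and Kdm5d. Titles number the replicates. For KO and WT arrays that share a number, deviations from group means correlated at 0.160 to 0.442 in unstimulated cells and at 0.186 to 0.518 under LPS, all above the minimum of 0.1, so the numbers pair the arrays in the genotype comparisons. By that rule, which every number must meet, they do not pair them in the LPS comparisons. There the correlations ran from -0.0602 to 0.559 in KO and from 0.0454 to 0.429 in WT. Only number 1 lay below the minimum in each genotype. No 2 arrays of a group were alike within noise (SD of the difference 0.235 to 0.546). In simulated data with 19937 genes, the fit recovered 56.7%, 89.6% and 100% of genes given a log2 change of 0.5, 1 or 2 in the comparison of KO with WT under LPS, with 4 false calls, and 17.9%, 76.1% and 100% in the difference in response, with 6 false calls. Alternatives tried were the replicate block, fits of only the compared groups, centring, a filter on dim genes, the mean of all probe sets, leaving out arrays, a sex term, only arrays with Xist above Kdm5d and eBayes with a trend. The fit of the compared groups with the replicate block was chosen after seeing the data.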

Additional observations from a re-analysis of the deposited data

Results flagged for a closer look

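The LPS response differed between genotypes in a test of the difference itself for 3 genes: Il1a (-2.07, KO response minus WT response), Il1rn (-1.04) and, in the wider pathway, P2rx7 (1.01). Their limma adjusted p-values were 0.0145, 0.0431 and 0.0314.

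Of 40 groups of 4 arrays examined among the 10 genes, 2 held an array far from the other 3, where chance would give about 1 in 20 groups. Casp4 in WT array 2 with LPS was 9.69, with the nearest of the others at 10.07. Gsdmd in unstimulated KO array 1 was 8.26, with the nearest of the others at 8.55.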

How the results depend on the processing

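The counts of genes called higher with LPS stayed at 8 or 9 in KO and at 8 in WT under every alternative run, including 8 to 9 in KO and 8 in WT with an array left out. The genotype counts moved. For KO against WT without LPS (1 called), 0 were called in the fit of only the compared groups, without the arrays numbered 4, without those numbered 1 and on the arrays with Xist above Kdm5d, and 0 to 1 with an array left out; with a sex term the gene called was Casp4 and not Nlrp3. For KO against WT with LPS (2 called), 4 were called in the fit of only the compared groups with the replicate block, 1 without the arrays numbered 1, 1 with the sex term, 0 with the sex term and the replicate block, 1 on the arrays with Xist above Kdm5d, and 1 to 3 with an array left out. With the replicate block alone 3 were called, Aim2 being the addition, and that block changed no other call among the 10 genes. For the difference in response (2 called), 1 was called with centred arrays, 0 without the arrays numbered 4, 0 without those numbered 1, 0 on the arrays with Xist above Kdm5d, and 1 to 2 with an array left out. With the sex term and the replicate block 3 were called in that difference, Aim2 being the addition. The causes were not tested, though leaving out arrays also lowers the power.

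Single values that changed sign were none of them called. Casp4 in KO against WT with LPS was -0.0930 without the arrays numbered 1, -0.61 with a sex term, -0.64 with that term and the replicate block and -0.67 on the arrays with Xist above Kdm5d, and ran from -0.12 to 0.26 with an array left out. The difference in response of Il1b was -0.0523 without the arrays numbered 1. That of Il18 was 0.0188 with centred arrays and ran from -0.31 to 0.22 with an array left out. That of Il33 was 0.0443 with centred arrays, 0.0377 without the arrays numbered 4 and 0.00432 on the arrays with Xist above Kdm5d, and ran from -0.0514 to 0.0196 with an array left out. Aim2 with LPS in WT ran from -0.281 to 0.0495. Of the other member values, 538 of the values under other settings and 761 of those with an array left out kept their direction and their side of the threshold, 47 lost a call and 8 gained one.

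Over all genes, calls for KO against WT without LPS numbered 200, against 327 with the replicate block, 91 in the fit of only the compared groups and 58 on the arrays with Xist above Kdm5d. With LPS they numbered 609, against 950, 478 and 89 under the same settings. For the difference in response they numbered 257, against 451 with the block and 4 on those arrays. Signal over background was not analysed here.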
